A study of Mus musculus with 6 samples.

Results

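The genes that load peptides onto MHC class II molecules were examined in the RNA-seq libraries of unstimulated bone marrow-derived dendritic cells (BMDCs). They were chosen by name and comprised the class II chain genes H2-Aa, H2-Ab1 and H2-Eb1, the invariant chain gene Cd74, the peptide editors H2-DMa, H2-DMb1, H2-DMb2, H2-Oa and H2-Ob, and Ciita. These 10 genes were all present among the 56748 Ensembl IDs of the count files and among the 21849 named genes tested. The paper names C57BL/6 mice as the source of WT marrow for BMDC flow cytometry. It gives no strain for the sequenced WT libraries in particular. Nfkb2-/- BMDCs came from mice that lack Nfkb2 globally, so the deletion was present in every cell type of the culture and not only in dendritic cells. The paper names no strain background for the Nfkb2-/- mice. Ages, and whether marrow was pooled between mice, are not given in the sources used here. Bone marrow of both genotypes was cultured for 9 days, first for 5 days with 20 ng/mL GM-CSF and then for 4 days with 20 ng/mL GM-CSF and 10 ng/mL IL-4. No stimulus was given (0 h), and 3 libraries of polyadenylated RNA were made per genotype, which the study describes as independent replicates.

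Class II molecules carry peptides from endosomes to the surface of antigen-presenting cells, where CD4+ T cells read them. CD74, the invariant chain, occupies the groove during transport and is cut down to a short fragment called CLIP, which H2-M (encoded by H2-DMa with H2-DMb1 or H2-DMb2) exchanges for other peptides, while H2-O (H2-Oa with H2-Ob) restrains H2-M. CIITA is the coactivator that switches on most of these genes, and dendritic cells are known for high class II levels. C57BL/6 mice carry a defective E alpha gene, H2-Ea-ps, so that H2-Eb1 is transcribed but its product lacks the usual partner chain.

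Nfkb2, the targeted gene, was read first as a check of the labels. Levels are given as CPM, counts scaled with edgeR's TMM method to a common library size. Nfkb2 was at 215, 154 and 355 in WT replicates 1, 2 and 3 against 44.8, 32.3 and 32.6 CPM in the Nfkb2-/- replicates in the same order, a log2 fold change of -2.72 (SE 0.33, adjusted p = 0.0307, edgeR's quasi-likelihood test). Library totals lay between 29863927 and 55623068 counts, and 3 counts corresponded to 0.0561 to 0.103 CPM, so counting error was small for every member gene. Nfkb2-/- replicate 1 had at least 1 count on 47952 genes, whereas the other libraries had 27692 to 33841, and it lay apart on the first principal component. WT replicate 3 stood apart in cell type markers. The summed level of 10 macrophage markers was 177 CPM there and 1059 and 1214 CPM in the other WT libraries, and the sum of 8 mature dendritic cell markers was 16830 CPM there, 8795 and 11680 CPM in the other WT libraries and 8297 to 8868 CPM in Nfkb2-/- libraries. Ccl22 was the largest part of the latter sum (adjusted p = 0.404, edgeR). It was at 10730 CPM in WT replicate 3, 5890 and 7787 CPM in other WT libraries and 5357 to 6072 CPM in Nfkb2-/- libraries. Of the 8 mature markers, Il12b, a subunit of IL-12, was called lower in Nfkb2-/- BMDCs (98.6 ± 61.1 to 11.6 ± 1.86 CPM, SD, n = 3, adjusted p = 0.0489, edgeR), where 1.14% of all genes tested were called. An unadjusted p under 0.05 (edgeR) was found for 5 of the 8, as for 17.1% of all genes. The median log2 fold change of the 8 was -0.63, beside 0.08 over all genes. The list did not move in 1 direction. Cd86, 1 of those 5, lay higher in every knockout library (401 and 598.5 CPM in WT and Nfkb2-/- BMDCs, log2 fold change 0.58, adjusted p = 0.284, edgeR). Cd80 had a log2 fold change of 0.02. Dendritic cell markers were uneven in level. Their summed level (6 genes) was 508 to 864 CPM in WT and 1652 to 1778 CPM in Nfkb2-/- BMDCs, and 1 of them, Itgax, which encodes CD11c, was called higher (187 to 743 CPM, adjusted p = 0.0414, edgeR). Mgl2 was the other large part of the sum (156 and 665 CPM in WT and Nfkb2-/- BMDCs, adjusted p = 0.162, edgeR). Dpp4 also lay higher in every knockout library (88.9 and 155.9 CPM, log2 fold change 0.81, adjusted p = 0.135, edgeR). Zbtb46, a transcription factor of the dendritic cell lineage, lay lower in every knockout library (179 and 123 CPM, log2 fold change -0.54, adjusted p = 0.192, edgeR), Flt3 was at 12.1 to 17.01 CPM and Cd209a at 3.51 to 26.9 CPM. These markers were singled out after their values were seen, and their part in the members' values was not tested. B cells also carry class II and H2-O, but the B cell markers Cd79a, Cd79b, Ms4a1, Pax5 and Ebf1 were each at most 2.39 CPM in Nfkb2-/- replicate 1 and at most 0.925 CPM in the other libraries, with Cd79b at 0 in WT replicate 2 and Ms4a1 at 0 in WT replicate 1. Among 6 mast cell and basophil markers, Cpa3 was called lower (7.98 and 2.23 CPM in WT and Nfkb2-/- BMDCs, adjusted p = 0.0413, edgeR). The sum of these 6 was 45.9 to 55.2 CPM in WT and 44.6 to 54.5 CPM in Nfkb2-/- libraries. No tested T cell, plasmacytoid dendritic cell, neutrophil or stromal marker was called. The sum of 5 stromal markers was 68.4 CPM in WT replicate 1 and 1.24 CPM in WT replicate 3. The share of all counts that fell on the member genes was 0.486% to 0.713% in WT and 0.557% to 0.710% in Nfkb2-/- libraries. These were bulk libraries of unsorted cultures, in which fewer cells of a type and less RNA per cell cannot be told apart.

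None of the 10 member genes was called different between the genotypes (adjusted p under 0.05 and a fold change over 1.2 in edgeR's quasi-likelihood test), where 1.14% of all genes tested were called. DESeq2, which called 8.65% of all genes, and limma voom also called 0 of the 10. Without adjustment, 2 of the 10 genes, Ciita and H2-DMb2, had a p-value under 0.05, as had 17.1% of all genes. The fitted log2 fold change of Nfkb2-/- over WT was positive for 7 member genes and negative for 3, with a median of 0.21, beside 0.08 over all genes. In absolute size its median was 0.36 for the members and 0.39 for all genes. Libraries of the genotypes did not overlap for 3 members, Ciita, H2-DMb2 and H2-Ob, all with Nfkb2-/- above WT, where 12.7% of all genes showed this order and 12% the opposite one.

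**Figure D1:**
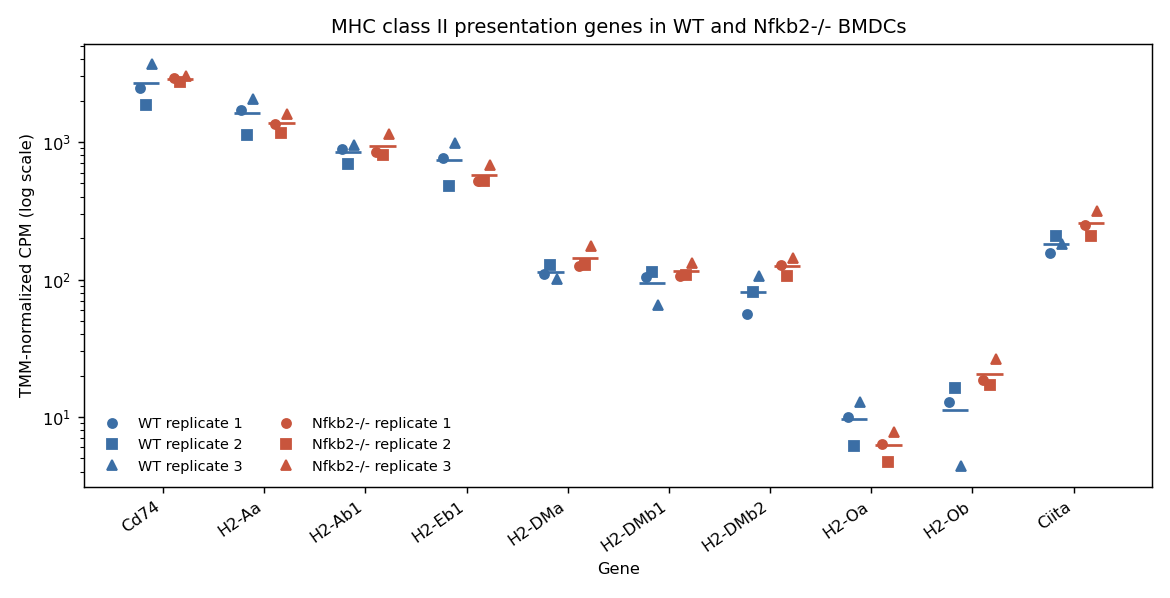
TMM-normalized CPM (log axis) of the 10 member genes in each library; circles, squares and triangles are replicates 1, 2 and 3, and horizontal lines are genotype means of 3 libraries. Cd74 and the chain genes sit far above Ciita and H2-M, H2-O lies lowest, and for 7 genes the genotypes overlap.

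Most members with a listed promoter shared a short sequence arrangement. It is shown because it is common to genes whose fitted fold changes had different signs, although none of them was called. Class II promoters are known for an X box, bound by the RFX complex, followed at a near-constant distance by a Y box, bound by NF-Y, on which CIITA assembles. In the RefSeq promoters (GRCm38.p6, 250 bases before to 50 bases after each start), 7 of the 10 members were listed, not H2-Ab1, Cd74 or Ciita. The pattern searched on both strands was AAC, then 25 to 28 bases, then ATTGG. It was found in 6 of the 7, not in H2-DMa, and in 2.49% of all 32851 windows. Below, the matched AAC and ATTGG are in capitals with 12 bases on either side, read 5′ to 3′ along the gene:
H2-Aa: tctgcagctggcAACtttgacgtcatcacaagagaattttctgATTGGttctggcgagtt
H2-Eb1: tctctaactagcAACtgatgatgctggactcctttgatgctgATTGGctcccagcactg
H2-DMb1: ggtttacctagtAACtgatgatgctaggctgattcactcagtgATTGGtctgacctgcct
H2-DMb2: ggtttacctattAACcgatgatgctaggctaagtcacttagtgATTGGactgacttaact
H2-Oa: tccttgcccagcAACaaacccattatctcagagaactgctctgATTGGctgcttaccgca
H2-Ob: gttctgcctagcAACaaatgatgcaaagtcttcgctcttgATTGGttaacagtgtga

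The spans were chr17:34287855-34287914 (minus strand) for H2-Aa, chr17:34305766-34305824 for H2-Eb1, chr17:34153087-34153146 for H2-DMb1, chr17:34145116-34145175 for H2-DMb2, chr17:34092293-34092352 for H2-Oa and chr17:34238808-34238864 for H2-Ob, all plus strand except the first. ATTGG began between 43 and 90 bases before the RefSeq start. The gap between AAC and ATTGG was 28 bases in H2-Aa, H2-DMb1, H2-DMb2 and H2-Oa, 27 in H2-Eb1 and 25 in H2-Ob. A letter pattern for NF-κB sites, GGG, then 5 bases, then CC, searched on both strands, matched in 5 of the 7 members, but also in 50.8% of all windows. One of these matches, GGGAGTTCCC, lay 131 bases before the start of H2-Aa. A match is a description of the letters and not evidence of binding.

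The chain genes and Cd74 were the most abundant members and their genotype means differed by less than the SD between WT libraries. H2-Aa (ENSMUSG00000036594), the alpha chain of I-A, measured 1711, 1131 and 2058 CPM in WT replicates 1 to 3 and 1364, 1155 and 1589 CPM in Nfkb2-/- replicates 1 to 3. WT replicate 3 was the highest and WT replicate 2 the lowest of the 6, with the knockout libraries between them, and the log2 fold change was -0.25 (SE 0.26, 95% interval -0.86 to 0.36, adjusted p = 0.656, edgeR). Levels of H2-Ab1 (ENSMUSG00000073421), which encodes the I-A beta chain, were 895, 696 and 947 CPM in WT and 840, 807 and 1139 CPM in Nfkb2-/- libraries, an overlapping set with the highest value in Nfkb2-/- replicate 3. Its log2 fold change was 0.13 (SE 0.21, interval -0.36 to 0.63, adjusted p = 0.784, edgeR). H2-Eb1 (ENSMUSG00000060586), the E beta chain, measured 768, 480 and 986 CPM in WT and 518, 521 and 682 CPM in Nfkb2-/- libraries. All knockout values again fell between WT replicates 2 and 3, at a log2 fold change of -0.38 (SE 0.28, interval -1.03 to 0.28, adjusted p = 0.535, edgeR).

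Cd74 (ENSMUSG00000024610) was the member with the highest level in every library. It measured 2453, 1870 and 3691 CPM in WT and 2905, 2748 and 3036 CPM in Nfkb2-/- replicates 1 to 3. The WT libraries enclosed the knockout libraries on both sides, and the SD over 3 libraries was 930 CPM in WT and 144 CPM in Nfkb2-/- BMDCs. Between genotypes the log2 fold change was 0.12 (SE 0.27, interval -0.52 to 0.75, adjusted p = 0.860, edgeR). It depended on single WT libraries, at 0.42 without WT replicate 3 and -0.08 without WT replicate 2. For H2-Aa and H2-Eb1 the values without WT replicate 3, the library low in macrophage markers, were -0.05 and -0.12, and those without WT replicate 2 were -0.46 and -0.61. The SD was larger in WT than in Nfkb2-/- BMDCs for 7 of the 10 members, which was not tested.

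Ciita (ENSMUSG00000022504; chromosome 16) measured 157, 206 and 181 CPM in WT and 250, 207 and 313 CPM in Nfkb2-/- replicates 1 to 3. Every knockout library lay above every WT library, although WT replicate 2 (205.7 CPM) and Nfkb2-/- replicate 2 (207.4 CPM) were nearly equal. The log2 fold change was 0.50 (SE 0.20, interval 0.04 to 0.97, unadjusted p = 0.0370, adjusted p = 0.254, edgeR), a ratio of 1.42, and this did not pass the test. It ranged from 0.34 to 0.61 over the 14 alternatives, with adjusted p-values from 0.162 to 0.657. Exons of Ciita share 329 bases with Dexi on the opposite strand, which was at 27.1 to 54.8 CPM.

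H2-M genes had positive fold changes that did not pass the test. H2-DMb2 (ENSMUSG00000037548), a beta chain of H2-M, measured 56.1, 81.1 and 105 CPM in WT and 127, 106 and 144 CPM in Nfkb2-/- replicates 1 to 3. The genotypes did not overlap, but WT replicate 3 (105.4 CPM) almost reached Nfkb2-/- replicate 2 (106.2 CPM). The fitted log2 fold change was 0.64 (SE 0.25, interval 0.06 to 1.22, unadjusted p = 0.0351, adjusted p = 0.247, edgeR). H2-DMb1 (ENSMUSG00000079547), the other beta chain, measured 104, 113 and 65.3 CPM in WT and 106, 107 and 132 CPM in Nfkb2-/- libraries, with WT replicate 3 alone at the bottom and the rest intermingled. Its log2 fold change of 0.29 (SE 0.23, interval -0.25 to 0.82, adjusted p = 0.561, edgeR) was 0.09 without that library and 0.44 without WT replicate 2. The alpha chain gene H2-DMa (ENSMUSG00000037649) measured 110, 128 and 101 CPM in WT and 126, 128 and 177 CPM in Nfkb2-/- libraries, where Nfkb2-/- replicate 3 was the only library clearly above the others. Its log2 fold change was 0.35 (SE 0.19, interval -0.09 to 0.79, adjusted p = 0.399, edgeR), and 0.18 without that library.

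Features of the annotation limit how H2-M counts can be read. Of the 50-base words of the principal H2-DMb1 transcript, 27.2% also occur in that of H2-DMb2, so the counting could have split or dropped reads between them. Within a library, the ratio of H2-DMb2 to H2-DMb1 in counts per kb was 0.522, 0.689 and 1.55 in WT and 1.16, 0.955 and 1.05 in Nfkb2-/- libraries, so that WT replicate 3 was the highest and the other WT libraries the lowest. This ratio was computed after the values were seen and was not tested. H2-DMa shares 360 exonic bases with Brd2 on the opposite strand, and Brd2 was at 239 to 322 CPM with a log2 fold change of -0.18 (adjusted p = 0.636, edgeR). Use of strand in the counting is not given in the sources used here.

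The H2-O chains were the least abundant members and had fold changes of opposite sign. H2-Oa (ENSMUSG00000024334), the alpha chain, measured 10.1, 6.18 and 12.8 CPM in WT and 6.41, 4.71 and 7.75 CPM in Nfkb2-/- replicates 1 to 3. Only WT replicate 2 lay within the range of the knockout. The log2 fold change was -0.62 (SE 0.31, interval -1.35 to 0.11, adjusted p = 0.374, edgeR) and -0.37 without WT replicate 3. H2-Ob (ENSMUSG00000041538), the beta chain, measured 12.95, 16.4 and 4.37 CPM in WT and 18.5, 17.04 and 26.2 CPM in Nfkb2-/- libraries. Every knockout library was above every WT library, narrowly so for WT replicate 2, and WT replicate 3 was far below the rest. Its log2 fold change was 0.87 (SE 0.45, interval -0.17 to 1.92, adjusted p = 0.379, edgeR) and fell to 0.50 without WT replicate 3. In counts per kb, H2-Ob relative to H2-Oa was 0.336, 0.692 and 0.0893 in WT and 0.756, 0.946 and 0.886 in Nfkb2-/- libraries, a description made after the values were seen.

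**Figure D2:**
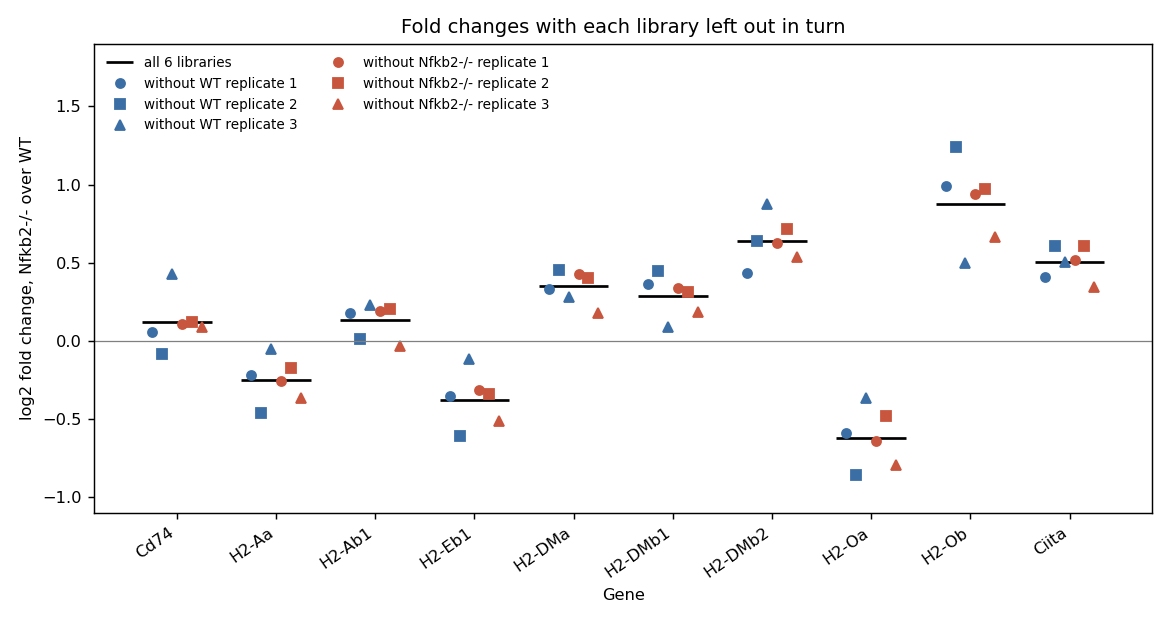
Log2 fold change (Nfkb2-/- over WT) of each member gene with all 6 libraries (black line) and with each library left out in turn (blue, a WT library left out; red, an Nfkb2-/- library left out). Cd74 ranges from -0.08 to 0.42 and H2-Ab1 from -0.03 to 0.23, crossing 0, while the other 8 genes stay on one side of it.

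Individual libraries ordered the members in different ways. Nfkb2-/- replicate 3 was the highest knockout library for all 10 genes. WT replicate 3 was the highest WT library for 6 genes (the 3 chain genes, Cd74, H2-DMb2 and H2-Oa) and the lowest for H2-DMa, H2-DMb1 and H2-Ob. WT replicate 2 was the lowest WT library for 5. The ratio of the highest to the lowest of the 6 libraries was between 1.64 for H2-Ab1 and 6.01 for H2-Ob, the latter set by WT replicate 3. The part that this library's other features had in these values was not tested.

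Per length of merged exons, levels in WT BMDCs ran from Cd74 at 1591 ± 554 CPM per kb (SD, n = 3) through H2-Aa at 430 ± 123, H2-Eb1 at 383 ± 131 and H2-Ab1 at 329 ± 51.6 CPM per kb. Cd74 was apart from the chains in every WT library, whereas these 3 chains overlapped each other. H2-DMb1 at 55.9 ± 15.1, H2-DMb2 at 46.3 ± 14.1 and H2-DMa at 32.7 ± 4.01 CPM per kb formed the next tier, each overlapping the one after it, followed by Ciita at 19.0 ± 2.55, H2-Oa at 6.89 ± 2.36 and H2-Ob at 2.09 ± 1.15 CPM per kb, each of which was apart from its neighbour. In Nfkb2-/- BMDCs the same tiers were found: Cd74 at 1725 ± 85.9 CPM per kb, the chains between 295 and 362, H2-M between 41.7 and 72.0, Ciita at 26.9 ± 5.58, and H2-Oa and H2-Ob at 4.47 ± 1.08 and 3.83 ± 0.919 CPM per kb, which overlapped. The order within a tier, and the gap between Cd74 and H2-Aa, depended on which length was used. With the principal transcript of each gene in place of merged exons, H2-Aa rose to 1448 CPM per kb in WT, above H2-Ab1 at 698 and H2-Eb1 at 446 CPM per kb. Cd74 was then at 1895 CPM per kb, much closer to H2-Aa than with merged exons. Whether single libraries stayed apart was not examined with these lengths.

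To compare the parts of the pathway without scaling between libraries, 3 ratios of counts per kb were formed within each library. H2-O to H2-M was 0.0763, 0.0493 and 0.0772 in WT and 0.0465, 0.0403 and 0.0489 in Nfkb2-/- replicates 1 to 3. All knockout values were below all WT values, but WT replicate 2 and Nfkb2-/- replicate 3 were nearly equal. The difference in log2 ratio was -0.55 (two-sided exact permutation test, p = 0.1, the smallest p that 3 against 3 libraries can give). This value rested on the lengths, with 5380 exonic bases in H2-Ob and 1407 in H2-Oa, and was -0.06 (exact p = 0.8) without division by length and -0.40 (exact p = 0.2) with principal transcript lengths.

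The ratio of H2-Aa to H2-Ab1, the chains that pair to form I-A, was 1.29, 1.099 and 1.47 in WT and 1.098, 0.968 and 0.944 in Nfkb2-/- replicates. WT replicate 2 and Nfkb2-/- replicate 1 met at the boundary between the genotypes. The log2 ratio differed by -0.35 (exact permutation test, two-sided p = 0.1), and by -0.46 to -0.25 with each library left out. Cd74 relative to the 3 chains was 1.22, 1.37 and 1.55 in WT and 1.82, 1.85 and 1.49 in Nfkb2-/- replicates. Here the genotypes overlapped through WT replicate 3 and Nfkb2-/- replicate 3, and the difference of 0.32 in log2 ratio had an exact two-sided permutation p = 0.2. No ratio could pass a threshold of 0.05 with 3 libraries per genotype.

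**Figure D3:**
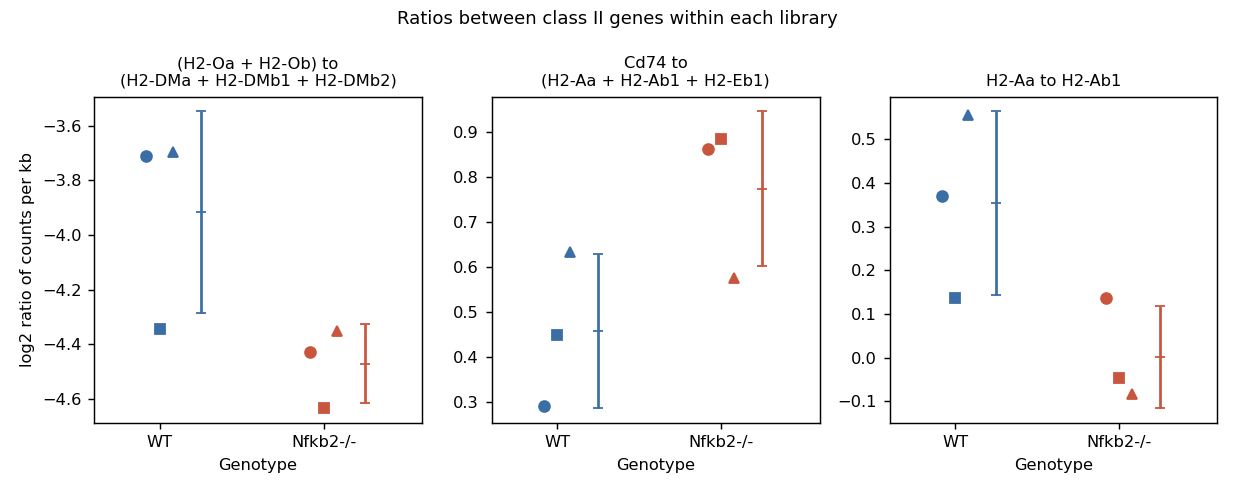
Log2 ratios of counts per kb within each library for H2-O to H2-M, Cd74 to the chains and H2-Aa to H2-Ab1; circles, squares and triangles are replicates 1, 2 and 3, and the bar beside them is the mean ± SD of 3 libraries. The genotypes touch almost exactly for the first and last ratio (exact p = 0.1 each) and overlap for the middle one.

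Genes that act around the members were counted in 5 lists of 35 genes, of which 34 were tested. In edgeR's quasi-likelihood test 1 was called higher in Nfkb2-/- BMDCs and 3 lower, and 30 were not called, where 0.453% and 0.682% of all genes were called higher and lower. The median log2 fold change over the 34 was -0.08, beside 0.08 over all genes. The calls depended on the libraries. Leaving out WT replicate 1 or any 1 of the Nfkb2-/- libraries left 0 of the 34 called (and 0 genes of the whole table), and leaving out WT replicate 2 gave 8. DESeq2 also called 8.

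The factors that bind class II promoters did not pass the test for any of 7 genes (median log2 fold change -0.12). The most abundant were Creb1, an X2 box factor, at 234 ± 20.4 CPM (SD, n = 3) in WT and 192 ± 34.7 CPM in Nfkb2-/- BMDCs, Nfya at 232 ± 69.2 and 227 ± 12.6 CPM, and Rfx5 at 37.7 ± 3.62 and 31.8 ± 2.27 CPM. Among 11 regulators of Ciita, 2 were called lower. Prdm1, which encodes the repressor Blimp-1 known to silence Ciita, measured 51.9, 72.5 and 56.3 CPM in WT and 22.6, 19.1 and 18.9 CPM in Nfkb2-/- replicates 1 to 3, well apart. Its log2 fold change was -1.57 (SE 0.18, adjusted p = 0.0277, edgeR).

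Irf1, an interferon-induced activator that acts on Ciita, measured 24.4, 19.4 and 29.9 CPM in WT and 10.7, 10.8 and 11.2 CPM in Nfkb2-/- libraries. All knockout libraries were below all WT libraries, at a log2 fold change of -1.17 (SE 0.19, adjusted p = 0.0461, edgeR). Without WT replicate 3 its adjusted p was 0.0510. The most abundant regulators were Jak2 (3010 ± 680 and 2826 ± 529 CPM in WT and Nfkb2-/- BMDCs), Irf4 (952 ± 338 and 1046 ± 45.8 CPM) and Jak1 (345 ± 58.5 and 317 ± 33.5 CPM), none called. Irf8, a transcription factor of the dendritic cell lineage that was singled out after its values were seen, was at 379, 173 and 540 CPM in WT and 93.3, 84.0 and 107 CPM in Nfkb2-/- libraries. Its log2 fold change of -1.94 (SE 0.39, adjusted p = 0.0660, edgeR) did not pass. It was called in 4 of the 14 alternatives, among them DESeq2 (adjusted p = 3.58e-05). Spi1, also named after its values were seen, lay higher in every knockout library (143 and 184 CPM in WT and Nfkb2-/- BMDCs). Its log2 fold change of 0.37 (adjusted p = 0.232, edgeR) did not pass. Prdm1, Irf1, Irf8 and Spi1 were the 4 regulators with an unadjusted p under 0.05 (edgeR), as had 17.1% of all genes.

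Of 8 genes for antigen and invariant chain processing, 1 was called lower. Lgmn, which encodes the lysosomal asparaginyl endopeptidase legumain, measured 321, 205 and 329 CPM in WT and 91.7, 96.7 and 87.2 CPM in Nfkb2-/- replicates 1 to 3. The knockout libraries were close to each other and all below WT, at a log2 fold change of -1.63 (SE 0.21, adjusted p = 0.0312, edgeR). Cst3, an inhibitor of cathepsins, was at 2117 ± 1218 and 2963 ± 619 CPM, Ctss, the protease that trims the invariant chain, at 1596 ± 339 and 1641 ± 352 CPM, and Ctsb at 780 ± 354 and 583 ± 75.9 CPM (WT and Nfkb2-/-, SD, n = 3), with overlapping genotypes for each. Among 7 genes for surface turnover and partners of CD74, 1 was called higher. Mif, a cytokine that binds CD74, measured 4.89, 5.48 and 3.51 CPM in WT and 12.3, 10.8 and 12.01 CPM in Nfkb2-/- replicates, a log2 fold change of 1.34 (SE 0.21, adjusted p = 0.0426, edgeR). With total counts in place of TMM its adjusted p was 0.0640. Cd44 and Cd83, the most abundant of this list, were at 922 ± 49.8 and 950 ± 436 CPM in WT and 885 ± 179 and 438 ± 35.8 CPM in Nfkb2-/- BMDCs, and Cd63 at 273 ± 46.5 and 154 ± 7.28 CPM. None of these passed, with adjusted p-values of 0.904, 0.150 and 0.0717 in edgeR. Cd83 and Cd63 lay lower in every knockout library and were each called in 3 of the 14 alternatives, Cd44 in 0. DESeq2 was among those that called Cd83 (adjusted p = 0.0145).

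The remaining class II genes were H2-Eb2 and H2-Ea-ps. H2-Eb2, a second E beta gene that shares no 50-base word with H2-Eb1, measured 40.9, 15.7 and 118 CPM in WT and 9.78, 8.87 and 17.8 CPM in Nfkb2-/- replicates 1 to 3. WT replicate 2 lay within the knockout range and WT replicate 3 far above all others. The log2 fold change was -2.26 (SE 0.69, interval -3.88 to -0.64, adjusted p = 0.163, edgeR), and it was called by DESeq2 (adjusted p = 0.00552) and without WT replicate 2 (-2.70, adjusted p = 0.0360). Without WT replicate 3 the value was -1.22 (adjusted p = 0.264, edgeR). H2-Ea-ps had at most 0.532 CPM in any library and was under the filter.

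**Figure D4:**
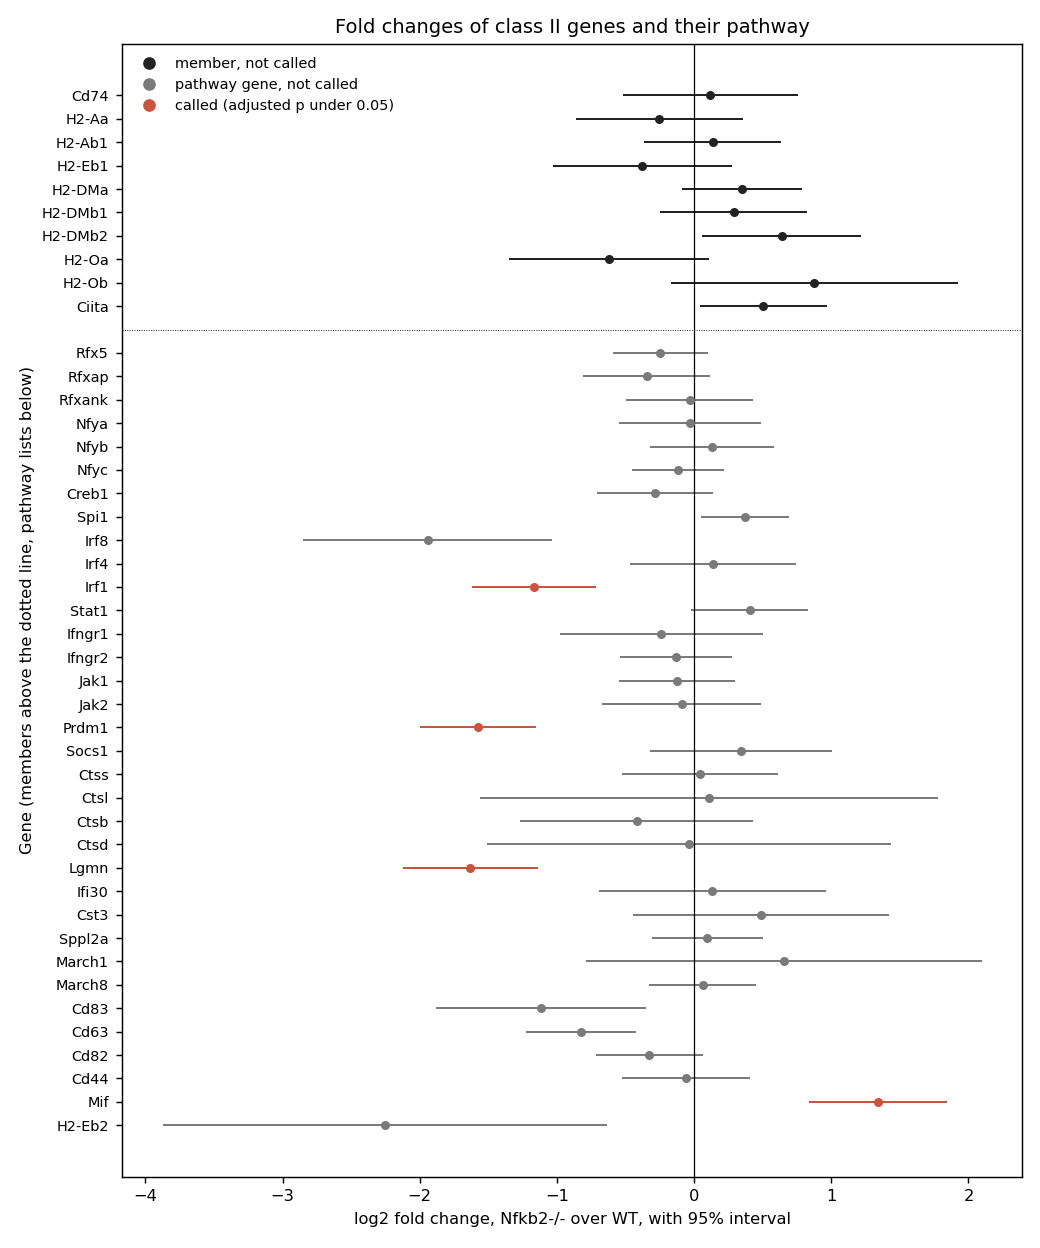
Log2 fold changes (Nfkb2-/- over WT) with 95% intervals from edgeR for the 10 member genes (above the dotted line) and the 34 tested genes of the pathway lists (below). Red marks the 4 called genes, Irf1, Prdm1, Lgmn and Mif; the intervals of Ciita and H2-DMb2 lie above 0 without passing adjustment.

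The 8 members on chromosome 17 lie between 34092340 and 34316674 (GRCm38, GENCODE M21), a span of 224335 bases that also holds 10 other tested genes. None of these neighbours was called, where 1.14% of all genes tested were called. An unadjusted p under 0.05 (edgeR) was found for 3, as for 17.1% of all genes. Their median log2 fold change was 0.44, beside 0.08 over all genes. This median includes CR974462.2, CR974462.4, Gm20493 and Gm15821, non-coding or pseudogene entries with genotype means between 0.224 and 2.76 CPM. Brd2, a chromatin reader and the most abundant neighbour, is given above. Tap1, a subunit of the transporter that supplies peptides to class I molecules, was next, at 60.6 ± 15.0 CPM in WT and 108 ± 16.7 CPM in Nfkb2-/- BMDCs without overlap, a log2 fold change of 0.83 (SE 0.21, adjusted p = 0.119, edgeR). The immunoproteasome subunit gene Psmb9 was at 29.3 ± 8.90 and 38.0 ± 2.30 CPM, with overlap. Gm20513, an antisense transcript that runs from 34293073 to 34308070 across the start of H2-Eb1, and Tap2 also lay higher in every knockout library, with log2 fold changes of 0.47 and 0.40 (adjusted p = 0.181 and 0.249, edgeR). They are named here after their values were seen, and 12.7% of all genes tested lay higher in every knockout library.

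Over the 6 libraries, the members did not share one profile. With the mean log2 CPM of the 3 chain genes and Cd74, Pearson's r was 0.82 for H2-Oa, 0.18 for H2-DMb2, -0.06 for Ciita, -0.19 for H2-DMa and -0.55 for both H2-DMb1 and H2-Ob. With Ciita, r was 0.89 for H2-DMa, 0.86 for H2-DMb2, 0.66 for H2-Ob and 0.59 for H2-DMb1, 0.42 for H2-Ab1, 0.17 for Cd74, -0.24 for H2-Aa and -0.35 for H2-Eb1. These coefficients describe 6 points that include the genotype difference and the library differences above. Among 10646 genes whose mean level reached 5 CPM, the non-members most like the chain and Cd74 profile were Rpsa, Smad7, Mrpl45, Pigp and Orai2 (r from 0.97 to 0.99). Those most like Ciita were Ruvbl1, Fam53a, Hist1h3a, Arpc1b and Ptpn6 (r from 0.95 to 0.97).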

How the data were processed

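RNA-seq was analysed in 3 WT and 3 Nfkb2-/- libraries, grouped by the sample labels. The authors deposited raw counts per Ensembl gene and library. The submitters' processing notes name HISAT2 and GRCm38 (mm10). The counting tool, annotation and use of strand are not given in the sources used here, so overlapping and near-identical genes are uncertain. A joined table of the same libraries was not used. A gene needed a GENCODE M21 name and a sum of 50 or more counts across libraries. IDs without a name took 1.01% to 1.75% of counts and were left out. Counts were normalized with TMM and tested with edgeR 4.0.16 (glmQLFit and glmQLFTest, R 4.3.3, no covariates), with Benjamini-Hochberg adjustment over all 21849 genes. DESeq2 1.42.0, limma voom (3.58.1), RLE size factors, total counts, other filters, a replicate block and each library left out in turn were alternatives. Tests were also run on simulated counts, with a common spread for all genes and changes larger than that of any member. This says nothing on how often smaller changes would be found. CPM were divided by the length of merged exons where genes were compared. The text names all members, the called genes of the pathway lists and of the class II region, and up to 3 of the most abundant genes of each list or of the region, and the 5 genes most like each profile. The members, lists and tests were chosen with earlier results of these data known. P-values of the fits set the genotype difference against the spread between these libraries only, with edgeR sharing information on that spread across genes. Those of the ratios come from exchanging genotype labels between the libraries. One marker of the B cell list is not reported here.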

Additional observations from a re-analysis of the deposited data

How the results depend on the processing

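None of the 10 member genes was called in any of the 14 alternatives, and 8 of them kept the sign of their fold change in all 14. H2-Ab1 reversed to -0.0343 without Nfkb2-/- replicate 3, and Cd74 reversed to -0.0845 without WT replicate 2, neither past the threshold (the cause was not tested). With 1 library left out, their log2 fold changes ranged from -0.0343 to 0.2258 and from -0.0845 to 0.4244. The number of pathway genes called, 4, was 8 with DESeq2, 7 with genes kept on a single count and 0 with the replicate block, and ranged from 0 to 8 with 1 library left out (8 without WT replicate 2, 0 without WT replicate 1 or any Nfkb2-/- replicate). Over all genes the 248 calls became 1890 with DESeq2, 488 with limma voom, 397 with filterByExpr, 459 with at least 10 counts in every library, 1625 with genes kept on a single count, 1248 without WT replicate 2 and 0 in the fits without WT replicate 1 or without any 1 Nfkb2-/- replicate. The replicate block gave 0 calls (3331 genes with an unadjusted p under 0.05). Same-numbered libraries deviated together with r = 0.138, 0.0597 and 0.0197, and differently numbered ones with r from -0.147 to 0.0779. The same-numbered values were not all over 0.1, so the numbers were not taken to pair the samples. The median of all genes moved to 0.17 with total counts and to 0.60 with genes kept on a single count. The 3 ratios kept their sign in all alternatives. Depth limited none of the members, and the number of libraries limits all tests.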
